A study of Homo sapiens with 8 samples.

Results

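The level of 9 genes that detect double-stranded RNA or pass its signal on was followed in HaCaT, a line of human skin keratinocytes that became immortal without an introduced oncogene. They were chosen by symbol, for their known roles: the sensors TLR3, IFIH1, DHX58 and EIF2AK2, the adaptors MAVS and TICAM1, the kinase TBK1, and the transcription factors IRF3 and IRF7. All 9 were found among the 34415 gene symbols of the deposited count table, and all 9 passed the filter on low counts. The 8 cultures fell into 2 groups. The siETV4 group (4 cultures) was transfected with a small interfering RNA (siRNA) against ETV4, an ETS-family transcription factor, and the siNC group (4 cultures) with a negative-control siRNA. Every culture, in both groups, spent 96 h in 35 mM glucose and carried its siRNA for 48 h. The basal glucose level listed for all 8 cultures is 5.5 mM. The cells were of passages 21 to 33, the submitters describe the cultures as independent biological replicates, and all derive from 1 cell line. Total RNA was sequenced to between 35057643 and 41657753 counts per library. Untransfected cells and cells in normal glucose were not analysed here. The values therefore set one siRNA duplex against another and do not measure the response that both duplexes may share. The siRNA sequences, not given in the sources used here, are not shown.

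Double-stranded RNA is a sign of viral replication, and a transfected siRNA is itself a short RNA duplex. TLR3 meets such RNA in endosomes and signals through the adaptor TICAM1 (TRIF). IFIH1 (MDA5) is a cytosolic helicase of the RIG-I-like receptor family that signals through MAVS on the mitochondrial surface, and DHX58 (LGP2) is a relative without signalling domains that tunes the other receptors of this family. Both routes lead to TBK1, which phosphorylates IRF3 and IRF7, the factors that switch on interferon genes. EIF2AK2 (PKR) acts differently: bound to double-stranded RNA, it phosphorylates the translation factor eIF2alpha. IFIH1, DHX58, EIF2AK2, TLR3 and IRF7 are themselves interferon-inducible. Keratinocytes respond to double-stranded RNA through both the endosomal and the cytosolic route.

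The promoters of 3 sensors and of TBK1 are shown because they carry a match to a motif of interferon-responsive or ETS-bound promoters. Promoter windows of 300 bases (250 before the annotated start and 50 after it) were found in the RefSeq table of build GRCh38.p14 for 6 of the 9 genes. DHX58, IRF3 and IRF7 have no entry in that table. Both strands were searched for the core of the interferon-stimulated response element (ISRE), which is GAAA, any 2 bases and GAAA again, and for an ETS site, CCGGAAGT. The windows are written 5′ to 3′ in the direction of the gene, and capitals mark matches to the ISRE core in the first 3 and to the ETS site in TBK1.
IFIH1, chr2:162318635-162318934, minus strand: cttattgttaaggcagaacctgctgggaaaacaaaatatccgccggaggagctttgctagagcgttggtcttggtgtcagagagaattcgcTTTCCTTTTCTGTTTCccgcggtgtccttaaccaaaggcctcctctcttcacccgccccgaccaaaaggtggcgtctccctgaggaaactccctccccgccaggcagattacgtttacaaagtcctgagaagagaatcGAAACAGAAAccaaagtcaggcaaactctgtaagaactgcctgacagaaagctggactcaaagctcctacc
EIF2AK2, chr2:37156931-37157230, minus strand: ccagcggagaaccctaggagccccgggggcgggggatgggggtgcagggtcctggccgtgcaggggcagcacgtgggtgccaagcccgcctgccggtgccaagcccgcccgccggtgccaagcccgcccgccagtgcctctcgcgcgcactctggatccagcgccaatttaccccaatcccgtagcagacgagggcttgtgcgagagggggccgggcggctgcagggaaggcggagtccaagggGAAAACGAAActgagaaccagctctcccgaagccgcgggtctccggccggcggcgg
TLR3, chr4:186068906-186069205, plus strand: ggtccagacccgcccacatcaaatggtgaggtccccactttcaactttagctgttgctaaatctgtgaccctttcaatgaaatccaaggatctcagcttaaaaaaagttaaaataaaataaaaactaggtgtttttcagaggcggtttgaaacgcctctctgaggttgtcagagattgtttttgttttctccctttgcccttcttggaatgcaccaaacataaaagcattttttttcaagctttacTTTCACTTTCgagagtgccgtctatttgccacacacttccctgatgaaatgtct
TBK1, chr12:64451870-64452169, plus strand: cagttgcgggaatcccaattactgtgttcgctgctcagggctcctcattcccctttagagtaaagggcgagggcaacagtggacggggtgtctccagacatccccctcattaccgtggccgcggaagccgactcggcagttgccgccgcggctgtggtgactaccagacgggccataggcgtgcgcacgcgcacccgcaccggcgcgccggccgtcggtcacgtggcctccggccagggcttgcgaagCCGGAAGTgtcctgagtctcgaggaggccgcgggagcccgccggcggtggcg
IFIH1 held 3 ISRE matches, of which 2 overlap each other, and EIF2AK2 and TLR3 held 1 each. None of the MAVS, TICAM1 and TBK1 windows held one. Among 34943 RefSeq promoter windows of the same length, 3.57% held at least 1 ISRE match. The ETS match of TBK1 was the only one in the 6 windows, and 4.11% of all windows held one. An NF-kB site, GGGA, any 2 bases and TTCC, was also searched on both strands, and no ISRE or ETS match overlapped a match to it. IFIH1 and TICAM1 held 1 NF-kB match each, against 1.61% of all windows with at least 1. A GAS site, TTC, any 3 bases and GAA, was searched as well. TLR3 held 2 GAS matches, not marked above, and was the only one of the 6 windows with any, against 7.66% of all windows. A match describes the letters only and does not show that a factor binds there.

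The libraries themselves were checked first. ETV4, the target of the siRNA, stood at 3.10, 2.71, 1.83 and 2.80 CPM (counts scaled to a common library total) in siETV4 replicates 1 to 4, against 32.0, 29.7, 31.1 and 19.8 CPM in siNC replicates 1 to 4. The log2 fold change of ETV4 was -3.43 (SE 0.21, edgeR adjusted p 4.64e-05). The keratinocyte keratin KRT5 lay between 1001 and 1165 CPM in the siETV4 libraries and between 1151 and 1327 CPM in the siNC libraries, while the leukocyte gene PTPRC had 0 counts in every library. Of the 10 keratinocyte markers tested, KRT17, a keratin of wounded epidermis, rose (log2 fold change 0.95, SE 0.11, edgeR adjusted p 0.00636) and KRT15, a keratin of basal cells, fell (-0.83, SE 0.10, edgeR adjusted p 0.00636). The other 8, KRT5 included, did not pass. Of 27 marker genes of fibroblasts, melanocytes, leukocytes and endothelium, 10 were tested and none passed in edgeR with all 8 libraries. The fibroblast marker DCN passed without siNC replicate 4 (1.81, SE 0.57, edgeR adjusted p 0.0440) and by DESeq2, at 0.345 to 0.937 CPM in the siETV4 libraries and 0.0242 to 0.238 CPM in siNC, and the 3 tested fibroblast markers had a median log2 fold change of 0.56. The summed level of the leukocyte list was 22.6 to 25.2 CPM in siETV4 and 16.8 to 24.5 CPM in siNC, led by CD68. The endothelial list summed to 15.2 to 21.9 CPM in siETV4 and 14.0 to 18.4 CPM in siNC, led by CDH5. The fibroblast list was at 4.16 to 5.34 CPM in the siETV4 libraries and 3.45 to 6.44 CPM in siNC, and the melanocyte list at 5.71 to 8.95 CPM in siETV4 and 4.28 to 8.21 CPM in siNC. The part of these markers in the results below was not tested. The libraries also differed in how their counts followed the GC content of transcripts. Across genes, which are not independent replicates, Spearman's rho between a library's deviation and GC content was -0.643, 0.203, -0.573 and 0.021 in siETV4 replicates 1 to 4. In siNC replicates 1 to 3 it was 0.554, 0.524 and 0.632, and in siNC replicate 4 it was -0.598. Results are therefore given for all 8 libraries, without siNC replicate 4, and with each library's trend over GC content and transcript length taken out (below, the library trends removed). Leaving out siNC replicate 4 does not remove the GC trend. siETV4 replicates 1 and 3, with a rho of -0.643 and -0.573, stayed in that fit. The siNC libraries that remain all have a rho of 0.524 to 0.632, above the -0.643 to 0.203 of siETV4. In that fit without offsets, group and GC trend therefore cannot be told apart. That fit called 2327 genes, against 32 with all 8 libraries, 10 without siETV4 replicate 1 and 9 without siETV4 replicate 3.

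With all 8 libraries, none of the 9 genes passed an adjusted p of 0.05 in edgeR's quasi-likelihood test, where 0.236% of the 13572 genes tested passed. DESeq2 also called 0 of the 9, beside 1.64% of all genes (0.884% higher and 0.759% lower), and limma-voom 0 of the 9, beside 0.309% (0.162% higher and 0.147% lower). EdgeR's share was 0.118% in each direction. At an unadjusted p under 0.05, edgeR had 2 of the 9 (DHX58 and MAVS), beside 12.6% of all genes. DESeq2 had 3 and limma-voom 3 (IFIH1, DHX58 and MAVS in each). The share over all genes at that threshold was taken for edgeR only, so these counts have none to be read against. The log2 fold change was positive for 5 of the 9 and negative for 4, with a median of 0.23, beside -0.01 over all genes tested. In bulk RNA, fewer cells that express a gene and less of its RNA per cell cannot be told apart.

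**Figure D1:**
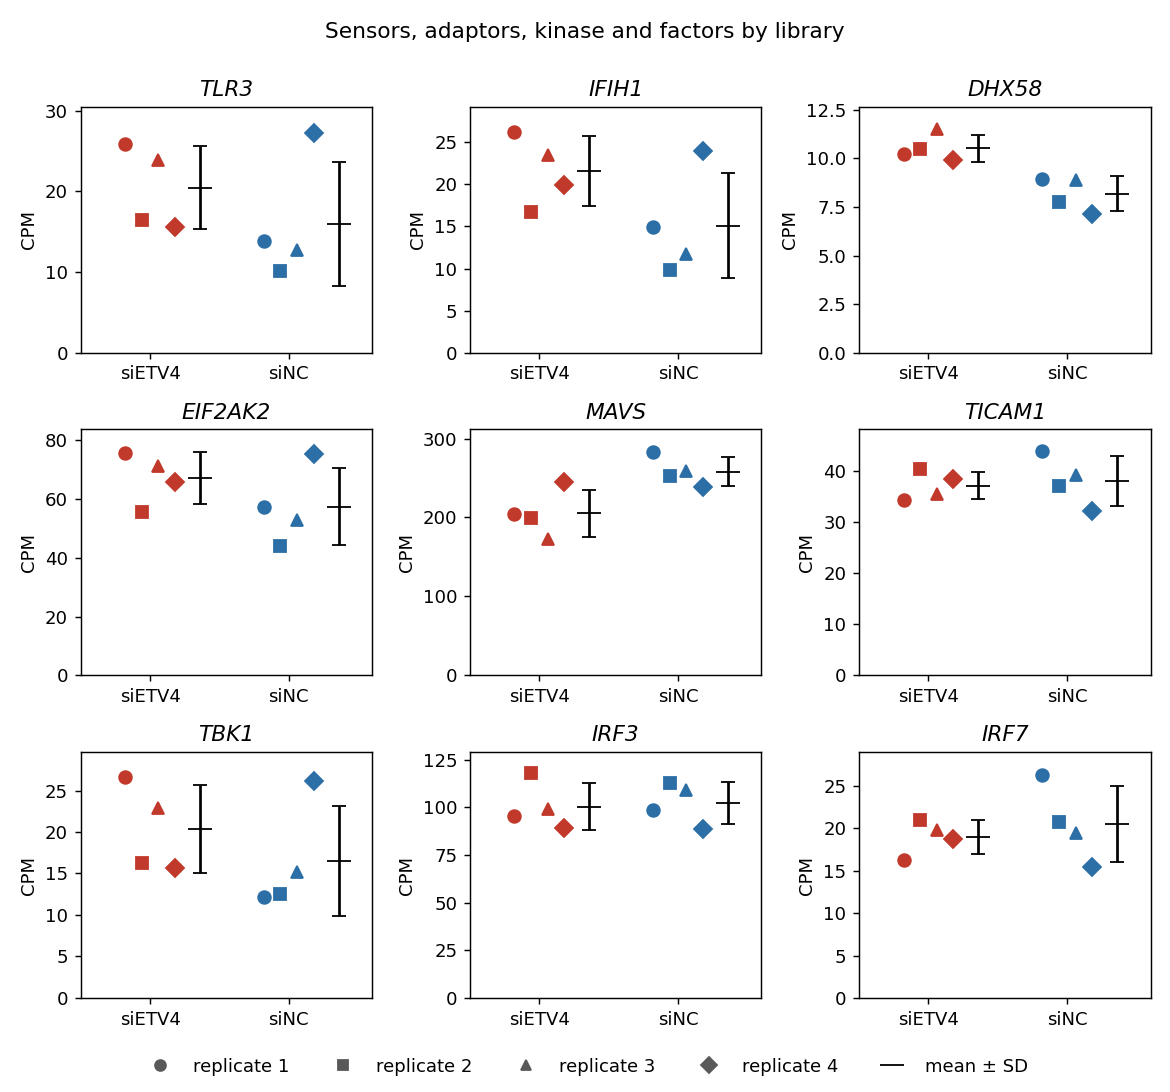
Expression (CPM on TMM-scaled library sizes, linear axes from 0) of the 9 genes in each library, with siETV4 on the left (red) and siNC on the right (blue); symbols mark the replicate numbers and black bars the mean ± SD of 4 libraries. DHX58 is the gene whose groups do not overlap; in TLR3, IFIH1, EIF2AK2 and TBK1 the diamond of siNC replicate 4 lies above the other siNC libraries.

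The cytosolic sensor IFIH1 (chromosome 2, 162267079 to 162318703, minus strand, GENCODE v29 on GRCh38 as for each gene below) was present at 26.2, 16.7, 23.5 and 19.9 CPM in siETV4 replicates 1 to 4, against 14.9, 9.84, 11.7 and 24.0 CPM in siNC replicates 1 to 4. Every siETV4 library lay above siNC replicates 1 to 3, and siNC replicate 4 lay within the siETV4 range, so the groups overlapped. Its log2 fold change was 0.51 (SE 0.25, edgeR adjusted p 0.423). Without siNC replicate 4 IFIH1 rose by 0.83 on the log2 scale (SE 0.18, edgeR adjusted p 0.0135). After removal of the library trends the change was 0.37 (SE 0.18, edgeR adjusted p 0.329), and with both steps together IFIH1 rose by 0.56 (SE 0.14, edgeR adjusted p 0.0315). After the trends were removed, siNC replicate 4 still held 22.1 CPM of IFIH1, within the 17.7 to 24.0 CPM of siETV4 and above the 11.4 to 17.3 CPM of the other siNC libraries.

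DHX58, the regulator of the same receptor family (chromosome 17, 42101404 to 42112733, minus strand), stood apart from the other sensors in its library pattern. It was at 10.2, 10.5, 11.5 and 9.90 CPM in siETV4 replicates 1 to 4 and at 8.93, 7.73, 8.91 and 7.12 CPM in siNC replicates 1 to 4. The groups did not overlap, and siNC replicate 4 was the lowest library. Its mean was 10.5 ± 0.687 CPM in siETV4 and 8.17 ± 0.898 CPM in siNC (SD, n = 4 each), and its log2 fold change was 0.36 (SE 0.14, edgeR adjusted p 0.343). A two-sided exact permutation test of the CPM gave p = 0.0286, the smallest that 4 against 4 libraries allow. DHX58 was the 1 gene of the 9 without overlap, where 6.55% of all genes tested had none (2.62% higher and 3.93% lower in siETV4). Once the library trends were removed, DHX58 rose by 0.50 on the log2 scale (SE 0.11), and its edgeR adjusted p of 0.0494 lay just under the threshold, which 0.894% of genes passed as higher in siETV4. Its corrected levels were 11.6, 10.5, 13.2 and 10.6 CPM in siETV4, against 8.63, 7.30, 8.26 and 8.25 CPM in siNC. It passed there without siNC replicate 4 too (0.50, edgeR adjusted p 0.0308). It did not pass without siNC replicate 4 alone (0.30, edgeR adjusted p 0.133).

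The endosomal receptor TLR3 (chromosome 4, 186069152 to 186088069, plus strand) was at 25.9, 16.5, 23.9 and 15.6 CPM in siETV4 replicates 1 to 4, against 13.8, 10.1, 12.7 and 27.3 CPM in siNC replicates 1 to 4. The highest of the 8 libraries was siNC replicate 4, and the other siNC libraries were the lowest. TLR3 had a log2 fold change of 0.36 (SE 0.29, edgeR adjusted p 0.610) with all libraries and 0.75 (SE 0.19, edgeR adjusted p 0.0229) without siNC replicate 4. It was 0.16 (SE 0.13, edgeR adjusted p 0.579) after removal of the library trends and 0.28 (SE 0.12, edgeR adjusted p 0.176) with both steps. TLR3 thus passed under 1 of these 4 treatments of the libraries and kept a positive sign in all 4.

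EIF2AK2, the kinase PKR (chromosome 2, 37099210 to 37157065, minus strand), stood at 75.8, 55.4, 71.3 and 65.8 CPM in siETV4 replicates 1 to 4 and at 57.3, 44.1, 52.7 and 75.3 CPM in siNC replicates 1 to 4. Replicate 1 of siETV4 and replicate 4 of siNC were almost level at the top. The log2 fold change was 0.23 (SE 0.16, edgeR adjusted p 0.554), and without siNC replicate 4 it was 0.39 (SE 0.12, edgeR adjusted p 0.0479). After removal of the library trends it was 0.04 (SE 0.08, edgeR adjusted p 0.872), and -0.02 (SE 0.08) with both steps. Of the 4 sensors EIF2AK2 had the difference nearest to 0 once the trends were removed.

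The adaptors did not share the positive signs of the sensors with all 8 libraries. MAVS, the adaptor of the RIG-I-like receptors (chromosome 20, 3846799 to 3876123, plus strand), was at 204, 199, 173 and 245 CPM in siETV4 replicates 1 to 4, against 283, 252, 259 and 239 CPM in siNC replicates 1 to 4. Only siETV4 replicate 4 reached the siNC range, whose lowest library was replicate 4. MAVS averaged 205 ± 29.9 CPM in siETV4 and 258 ± 18.3 CPM in siNC (SD, n = 4 each), and its log2 fold change was -0.33 (SE 0.11, edgeR adjusted p 0.293). Without siNC replicate 4 it fell by 0.37 on the log2 scale (SE 0.11, edgeR adjusted p 0.0354). It was at -0.20 (SE 0.07, edgeR adjusted p 0.190) with the trends removed and at -0.24 (SE 0.07, edgeR adjusted p 0.0531) with both steps, so the sign was negative in all 4 treatments.

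TICAM1, the adaptor of TLR3 (chromosome 19, 4815932 to 4831704, minus strand), was at 34.4, 40.4, 35.5 and 38.4 CPM in siETV4 replicates 1 to 4, against 44.0, 37.1, 39.2 and 32.2 CPM in siNC replicates 1 to 4. Both the highest and the lowest library belonged to siNC. The log2 fold change was -0.04 (SE 0.12, edgeR adjusted p 0.908), and it turned positive, 0.11 (SE 0.07, edgeR adjusted p 0.465), once the library trends were removed.

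The kinase TBK1 (chromosome 12, 64451880 to 64502108, plus strand) was highest in the same 3 libraries as TLR3. It stood at 26.6, 16.3, 22.9 and 15.7 CPM in siETV4 replicates 1 to 4 and at 12.2, 12.5, 15.2 and 26.2 CPM in siNC replicates 1 to 4. TBK1 had a log2 fold change of 0.30 (SE 0.26, edgeR adjusted p 0.629), and it rose by 0.61 without siNC replicate 4 (SE 0.18, edgeR adjusted p 0.0382). After trend removal it was 0.08 (SE 0.13, edgeR adjusted p 0.822), and 0.19 (SE 0.13, edgeR adjusted p 0.417) with both steps.

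IRF3 (chromosome 19, 49659569 to 49665875, minus strand), a factor that cells hold before infection and that TBK1 activates, was at 95.6, 118, 99.0 and 89.0 CPM in siETV4 replicates 1 to 4, against 98.5, 113, 109 and 88.8 CPM in siNC replicates 1 to 4. The ranges lay on top of each other, with a log2 fold change of -0.03 (SE 0.11, edgeR adjusted p 0.932) that became 0.10 (SE 0.07, edgeR adjusted p 0.505) with the trends removed. IRF3 shares 734 exon bases with BCL2L12 on the opposite strand in GENCODE v29, BCL2L12 was counted as well, and reads of this overlap cannot be told apart without the strand setting, not given in the sources used here.

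IRF7, the interferon-inducible partner of IRF3 (chromosome 11, 612553 to 615999, minus strand), had 679, 852, 823 and 773 counts in siETV4 replicates 1 to 4, against 1079, 698, 774 and 641 counts in siNC replicates 1 to 4. By CPM the siNC group held both extremes, and the means were 18.9 ± 1.99 CPM in siETV4 and 20.5 ± 4.46 CPM in siNC (SD, n = 4 each). The log2 fold change was -0.12 (SE 0.16, edgeR adjusted p 0.772), and 0.06 (SE 0.10, edgeR adjusted p 0.831) with the trends removed.

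Without siNC replicate 4, 4 of the 9 genes were called higher in siETV4 (TLR3, IFIH1, EIF2AK2 and TBK1) and 1 lower (MAVS). In that comparison 16.9% of the 13783 genes tested were called, 12.0% higher and 4.88% lower. Once the library trends were removed, 1 of the 9 was called higher (DHX58) and 0 lower, where 1.77% of 12751 genes were called, 0.894% higher and 0.878% lower. With both steps, 2 were higher (IFIH1 and DHX58) and 0 lower, where 6.42% of 12888 genes were called, 3.01% higher and 3.41% lower. IFIH1 and DHX58 were the genes of the 9 called with both steps together, and neither was called with all 8 libraries uncorrected.

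**Figure D2:**
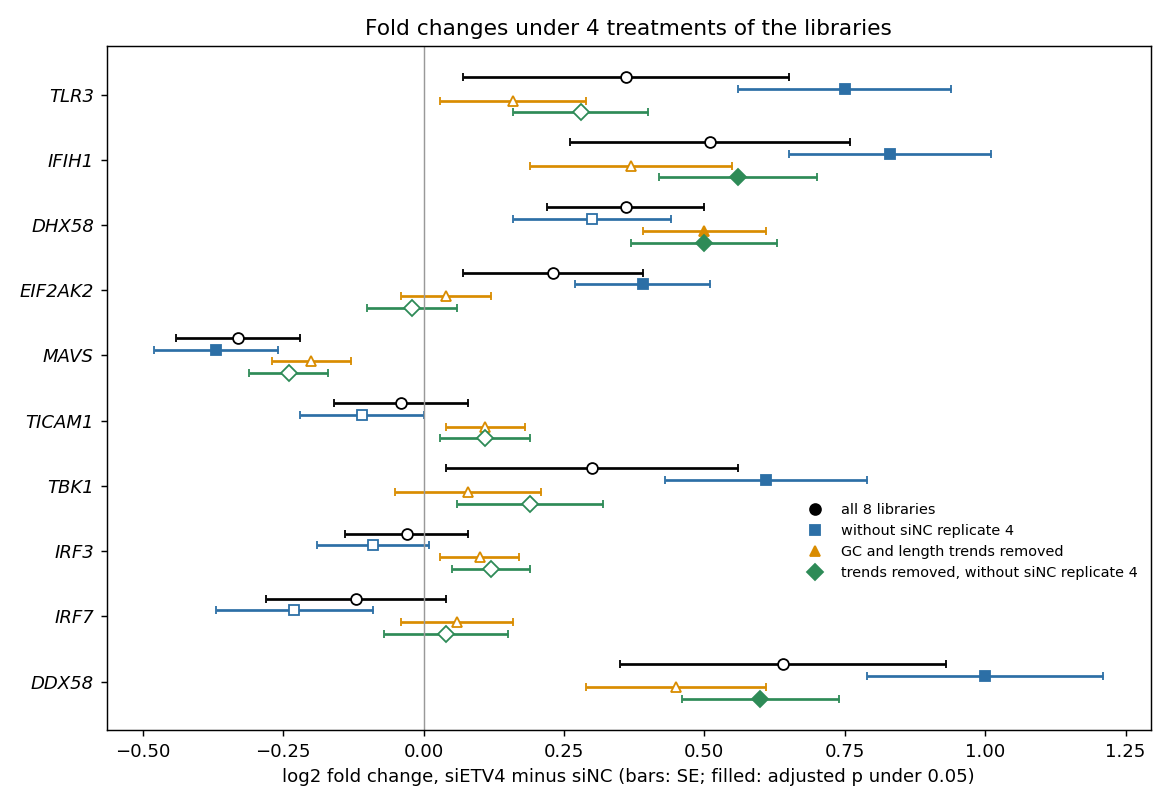
Log2 fold change of the 9 genes and of DDX58 (RIG-I), siETV4 minus siNC, with its SE, for all 8 libraries, without siNC replicate 4, with GC content and length trends removed, and with both steps; filled symbols have an edgeR adjusted p under 0.05. TLR3, EIF2AK2, TBK1 and MAVS are filled in the fit without siNC replicate 4 and in no other, DHX58 is filled in both corrected fits, and IFIH1 and DDX58 are filled in both fits without siNC replicate 4.

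The library pattern of the 9 genes differed with the GC content of their transcripts. TLR3 (37.6% GC), EIF2AK2 (38.7%), TBK1 (39.3%) and IFIH1 (43.3%) lay below the median of 48.4% over the genes tested, and MAVS (52.1%), DHX58 (58.2%), IRF3 (59.0%), TICAM1 (63.0%) and IRF7 (66.8%) lay above it. In each of the 4 genes of low GC content the highest 3 libraries were siETV4 replicates 1 and 3 and siNC replicate 4, as in 18.5% of all genes tested. Those are the 3 libraries whose rho with GC content was below -0.5. None of the 5 genes of higher GC content had that order, and in TICAM1 the same 3 libraries were the lowest, as in 10.9% of all genes. siNC replicate 4 deviated from the mean of all libraries by 0.67, 0.30, 0.57 and 0.46 on the log2 scale in TLR3, EIF2AK2, TBK1 and IFIH1. It deviated by 0.06 in MAVS and by -0.37, -0.18, -0.22 and -0.33 in DHX58, IRF3, TICAM1 and IRF7. The part of GC content in these differences was not tested beyond the fits with the trends removed.

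**Figure D3:**
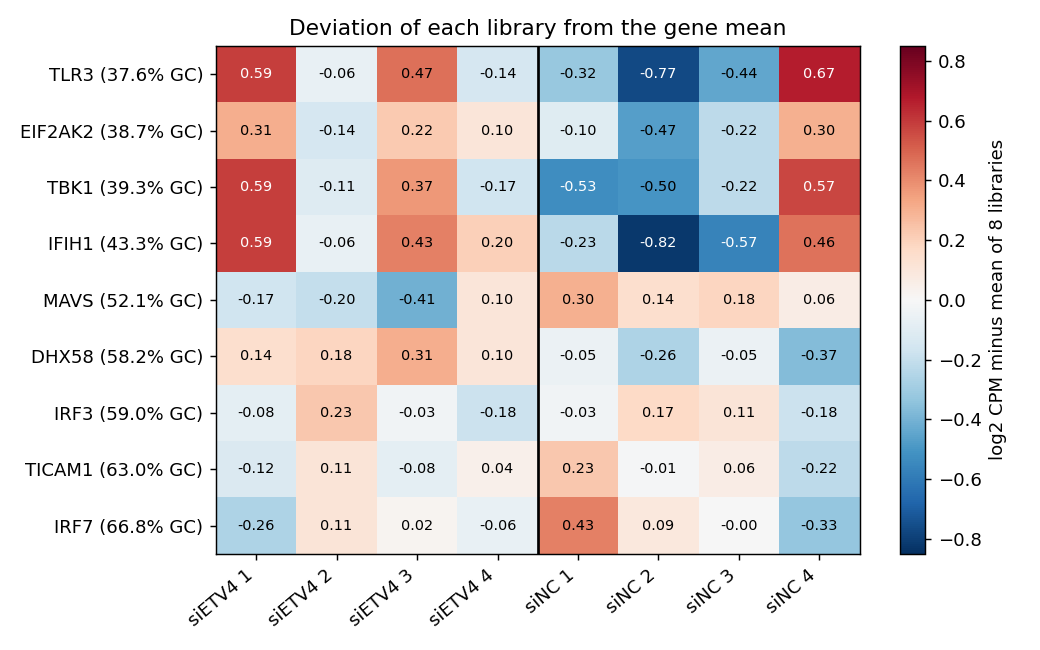
Deviation of each library (columns, siETV4 left of the line and siNC right of it) from the gene's mean log2 CPM over 8 libraries, for the 9 genes ordered from low GC content (top) to high (bottom); red is above and blue below the mean. The top 4 rows are red in siETV4 replicates 1 and 3 and in siNC replicate 4, and DHX58 is positive in all 4 siETV4 libraries and negative in all 4 siNC libraries.

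Levels were compared between genes per length, with the deposited FPKM (counts scaled by gene length and library total). IRF3 was the highest of the 9 in both groups, at 52.9 ± 5.74 FPKM in siETV4 and 52.2 ± 4.15 FPKM in siNC (SD, n = 4 each). MAVS followed at 17.5 ± 2.50 FPKM in siETV4 and 21.4 ± 1.40 FPKM in siNC. TICAM1 came next with 14.0 ± 0.819 FPKM in siETV4 and 14.0 ± 1.62 FPKM in siNC, then IRF7 with 9.34 ± 0.935 FPKM in siETV4 and 9.80 ± 2.04 FPKM in siNC. The sensors and TBK1 were all lower, from 6.63 ± 0.973 FPKM (EIF2AK2) to 3.46 ± 0.926 FPKM (TLR3) in siETV4 and from 5.51 ± 1.43 FPKM (EIF2AK2) to 2.64 ± 1.37 FPKM (TLR3) in siNC. In siETV4 the first 4 genes did not overlap with their neighbours. EIF2AK2, IFIH1 and TBK1 overlapped, as did DHX58 and TLR3. In siNC, TICAM1 and IRF7 overlapped, and so did each gene from EIF2AK2 to TLR3 with the next. By deposited FPKM the adaptors and factors thus stood above the sensors in both groups. This order rests on the deposited lengths, which for EIF2AK2 is 10294 bases. By CPM, EIF2AK2 (67.1 in siETV4 and 57.3 in siNC) stood above TICAM1 (37.2 and 38.1) and IRF7 (18.9 and 20.5). The part of length and GC content in the order was not tested.

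For each gene the others whose log2 CPM followed it most closely over the 8 libraries were noted, by Pearson's r and without a test, since libraries share depth and GC trends. ERCC6 (r = 0.996) and ARMT1 (0.994) were closest to TLR3, RAVER2 (0.994) and USP46 (0.989) to IFIH1, and ERAP1 (0.989) and BICD1 (0.987) to EIF2AK2. ZBTB8A and FBXO30 were closest to TBK1 (0.989 each). These 8 genes had transcripts of 34.8% to 42.3% GC. DHX58 was followed most closely by PPIC (0.941) and by the chemokine gene CCL5 (0.937), which itself rose with all 8 libraries. MYH9 (0.993) and UBAP2L (0.992) were closest to MAVS, TRIM47 (0.981) to TICAM1, CAMTA1 (0.985) and GATC (0.978) to IRF3, and EVA1A (0.964) and UBALD1 (0.962) to IRF7.

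Among 12 other RNA sensors, 9 were tested and none was called with all 8 libraries, with a median log2 fold change of 0.41 beside -0.01 over all genes. At an unadjusted p under 0.05 edgeR had 3 of the 9, beside 12.6% of all genes. DESeq2 called 1 higher and 0 lower, beside 0.884% and 0.759% of all genes, and limma-voom 0. Without siNC replicate 4, 6 were higher and 0 lower, and with the trends removed 2 were higher (OAS2 and OASL) and 0 lower, where 12.0% and 0.894% of all genes were higher in these fits. DDX58 encodes RIG-I, the cytosolic receptor of RNA duplex ends that shares MAVS with IFIH1. It stood at 21.6, 13.2, 17.1 and 12.3 CPM in siETV4 replicates 1 to 4, against 9.71, 7.88, 6.42 and 17.1 CPM in siNC replicates 1 to 4. As in IFIH1, all siETV4 libraries lay above siNC replicates 1 to 3 and siNC replicate 4 lay among them. For DDX58 the log2 fold change was 0.64 (SE 0.29, edgeR adjusted p 0.394), 1.00 without siNC replicate 4 (edgeR adjusted p 0.0124), 0.45 after trend removal (edgeR adjusted p 0.193) and 0.60 with both steps (edgeR adjusted p 0.0242).

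The oligoadenylate synthetases, which make a second messenger of the antiviral response, differed in sign. OAS2 was at 11.3, 10.0, 10.9 and 12.7 CPM in siETV4 replicates 1 to 4, against 5.88, 4.99, 5.46 and 9.18 CPM in siNC replicates 1 to 4, with no overlap. Its log2 fold change of 0.82 (SE 0.20) had an edgeR adjusted p of 0.154 with all libraries. OAS2 rose without siNC replicate 4 (1.04, edgeR adjusted p 0.00333) and after trend removal (0.78, edgeR adjusted p 0.0221). OASL, a relative without synthetase activity that aids RIG-I, ranged over 40.5 to 49.6 CPM in the siETV4 libraries and over 29.4 to 40.2 CPM in siNC. OASL had a log2 fold change of 0.41 (SE 0.12, edgeR adjusted p 0.262), 0.39 without siNC replicate 4 (edgeR adjusted p 0.0474) and 0.48 after trend removal (edgeR adjusted p 0.0301). OAS1 (-0.16, SE 0.11) and OAS3 (-0.11, SE 0.10) had negative values with all libraries and passed in none of the 4 treatments, and OAS3 was at 0.01 with the trends removed.

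DHX9 and DDX60, helicases that bind double-stranded RNA, had 1 siNC library far from the other 3. DHX9 was at 282, 203, 282 and 191 CPM in siETV4 replicates 1 to 4, against 139, 144, 134 and 279 CPM in siNC replicates 1 to 4. DDX60 was at 38.7, 20.4, 28.0 and 18.9 CPM in siETV4, against 13.6, 14.9, 13.9 and 35.2 CPM in siNC. In both genes siNC replicate 4 stood at about the height of siETV4 replicate 1. Their log2 fold changes were 0.46 (SE 0.23) and 0.45 (SE 0.33), with edgeR adjusted p of 0.433 and 0.566. Both passed without siNC replicate 4 (edgeR adjusted p 0.00703 and 0.0169), and DHX9 also with both steps (0.53, edgeR adjusted p 0.00684). NLRP1, an inflammasome sensor of keratinocytes that can be set off by long double-stranded RNA, was low at 4.54 to 7.68 CPM in siETV4 and 5.74 to 7.99 CPM in siNC, with a log2 fold change of -0.23 (SE 0.19). The sensor ZBP1 held 0 counts in every siETV4 library and 0, 0, 8 and 1 in the siNC libraries, and the endosomal receptors of single-stranded RNA, TLR7 and TLR8, had 0 counts in all 8.

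**Figure D4:**
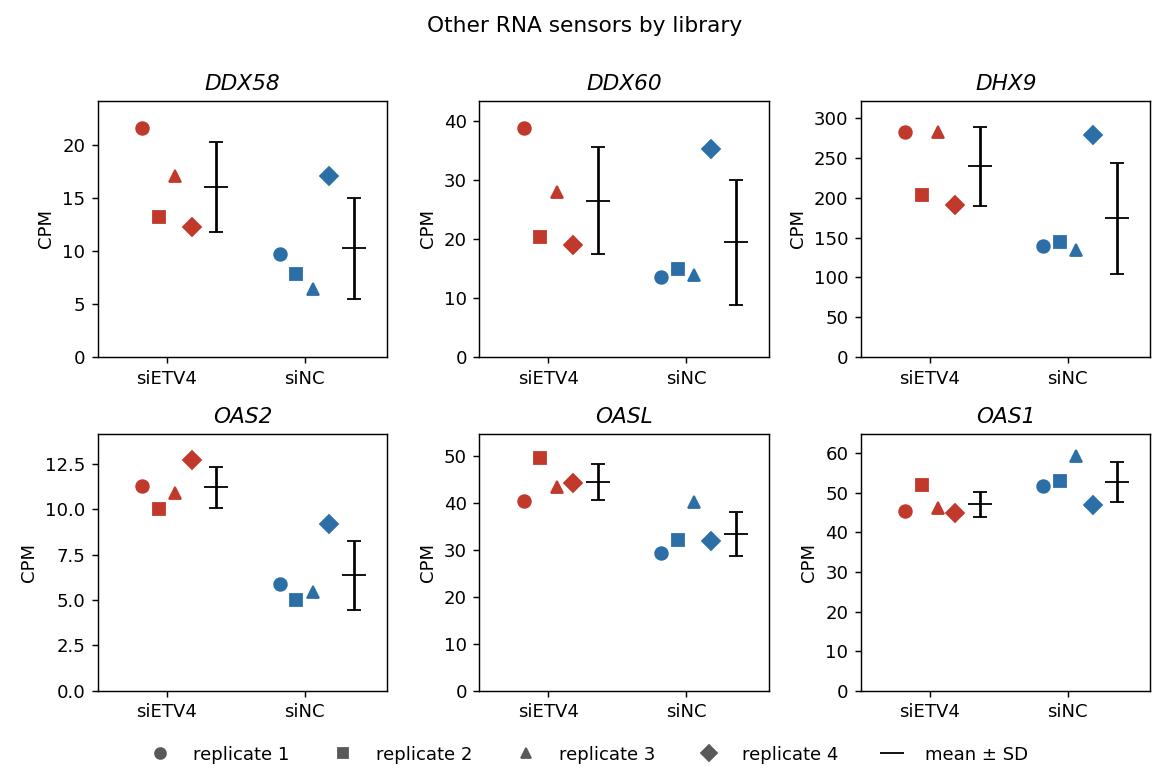
Expression (CPM, linear axes from 0) of 6 of the other RNA sensors in each library, siETV4 on the left (red) and siNC on the right (blue), with symbols for the replicate number and black bars for the mean ± SD of 4 libraries. The siNC diamond (replicate 4) stands with the siETV4 libraries in DDX58, DDX60 and DHX9, and the groups do not overlap in OAS2 and OASL.

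The steps around the sensors were given by lists chosen with earlier results of these data known. None of the 14 regulators of RNA sensing passed with all 8 libraries (median log2 fold change -0.04), and neither did any of the 15 genes below the adaptors (0.09) or the 11 genes of the RNA interference machinery (0.0042). Only part of that machinery, such as AGO2, loads and uses the siRNA. AGO2 averaged 92.9 ± 12.2 CPM over the siETV4 libraries, against 88.8 ± 10.7 CPM over the siNC libraries (SD, n = 4 each). The nuclear export factor XPO5, of the same list, averaged 119 ± 6.63 CPM over the siETV4 libraries, against 115 ± 5.04 CPM over the siNC libraries (SD, n = 4 each). When siNC replicate 4 was left out, the counts higher and lower were 2 and 1 for the regulators, 1 and 1 below the adaptors, and 0 and 0 for RNA interference, where 12.0% of all genes were higher and 4.88% lower, so that the counts of the first 2 lists lie near the share over all genes. With the trends removed they were 0 in both directions for all 3 lists, where 0.894% of all genes were higher and 0.878% lower. A list of 14 genes held eIF2alpha itself (EIF2S1), its other kinases and stress-response genes, and is not a list of EIF2AK2 targets. Of these, 0 passed with all libraries (median 0.14). Without siNC replicate 4, 5 were higher (EIF2S1, EIF2AK3, EIF2AK4, DNAJC3 and PPP1R15B) and 0 lower. With the trends removed, 1 was higher (CHAC1) and 0 lower. The shares of all genes in these fits are those just given. ATF4, whose translation rises when eIF2alpha is phosphorylated, was at 408 ± 5.99 CPM in the siETV4 libraries and 426 ± 50.7 CPM in siNC (SD, n = 4 each). Its log2 fold change was -0.06 (SE 0.09), and 0.09 with the trends removed.

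Of the other interferon regulatory factors, 5 of 7 were tested and 0 passed with all libraries (median -0.14). IRF9, IRF5 and IRF1, singled out after their values were seen, had groups that did not overlap. Over all genes tested, 2.62% were higher and 3.93% lower in siETV4 without overlap. IRF9, the DNA-binding part of the complex through which type I interferon acts, was at 20.8, 23.0, 20.5 and 23.5 CPM in siETV4 replicates 1 to 4, against 12.8, 15.1, 16.2 and 13.9 CPM in siNC replicates 1 to 4. Its log2 fold change was 0.60 (SE 0.12, edgeR adjusted p 0.103), and it rose without siNC replicate 4 (0.58, edgeR adjusted p 0.0149) and after trend removal (0.71, edgeR adjusted p 0.00368). IRF5 was at 9.10 to 12.5 CPM in the siETV4 libraries and 15.2 to 17.3 CPM in siNC, and its log2 fold change was -0.58 (SE 0.13, edgeR adjusted p 0.138). It fell without siNC replicate 4 (-0.60, edgeR adjusted p 0.0168) and after trend removal (-0.47, edgeR adjusted p 0.0486). IRF1 was at 168 to 182 CPM in the siETV4 libraries and 194 to 213 CPM in siNC, with a log2 fold change of -0.25 (SE 0.08, edgeR adjusted p 0.262). IRF1 fell without siNC replicate 4 (-0.29, edgeR adjusted p 0.0263) and did not pass after trend removal (-0.16, edgeR adjusted p 0.181). None of the 4 tested genes of DNA sensing passed with all libraries (median 0.03), and IFI16, a sensor of nuclear DNA, was at 79.6 to 147 CPM in the siETV4 libraries and 59.7 to 132 CPM in siNC. Of 12 genes of Toll-like receptor handling, 9 were tested and 0 passed (median -0.03). Without siNC replicate 4, 1 gene was higher and 2 were lower among the interferon regulatory factors, 1 and 0 in DNA sensing, and 1 and 2 in Toll-like receptor handling. Over all genes 12.0% were higher and 4.88% lower in that fit. At an unadjusted p under 0.05 edgeR had 2 regulators of RNA sensing, 0 genes below the adaptors, 0 of RNA interference, 2 of the stress response, 3 interferon regulatory factors, 0 of DNA sensing and 2 of receptor handling. The share over all genes tested was 12.6%. DESeq2 called 1 interferon regulatory factor higher and 1 lower and 0 genes of the other lists named here, and limma-voom called 0 in each.

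The genes that the pathway is known to switch on were set beside it. No interferon ligand passed the filter. IFNB1, IFNA1, IFNA2, IFNK, IFNL2, IFNL3 and IFNG had 0 counts in all 8 libraries, where 3 counts in a library, the limit that a count of 0 allows, correspond to 0.072 to 0.074 CPM in siETV4 and 0.073 to 0.089 CPM in siNC. IFNL1, a type III interferon, held 2, 15, 1 and 0 counts in siETV4 replicates 1 to 4 and 0 in every siNC library, and IFNE held 0, 5, 6 and 0 counts in siETV4 against 6, 2, 0 and 0 in siNC. Cells were taken after 48 h of transfection, and earlier times were not analysed here. Of 10 genes that IRF3 can induce directly, 8 were tested, 1 rose with all 8 libraries and 0 fell (median 0.62), beside 0.118% of all genes each way. That gene was the chemokine CCL5, at 13.6, 16.3, 14.4 and 13.3 CPM in siETV4 replicates 1 to 4 and 7.59, 6.69, 7.68 and 5.52 CPM in siNC replicates 1 to 4. CCL5 had a log2 fold change of 1.07 (SE 0.15, edgeR adjusted p 0.0163). The call was lost without siETV4 replicate 1, 2 or 3 or siNC replicate 1 or 2 (edgeR adjusted p 0.0532 to 0.0806), while the fold change stayed at 0.97 to 1.12 with any 1 library left out. IFIT3 and IFIT2, antiviral proteins that act on translation, had log2 fold changes of 0.63 (SE 0.21) and 0.61 (SE 0.25), and both passed without siNC replicate 4 (edgeR adjusted p 0.00333 and 0.00601). The list had 6 members higher and 0 lower without siNC replicate 4, and 3 and 0 with the trends removed, beside the shares of all genes given above for these fits. Of 25 type I interferon-stimulated genes, 24 were tested, and IFI27, IFI6 and BST2 rose while 0 fell (median 0.41). Over all genes 0.118% rose and 0.118% fell. At an unadjusted p under 0.05 edgeR had 12 of these 24 and 5 of the 8 tested genes that IRF3 can induce, beside 12.6% of all genes. DESeq2 called 7 and 2 higher and 0 lower in either list, beside 0.884% and 0.759% of all genes. Limma-voom called 3 and 1 higher and 0 lower, beside 0.162% and 0.147% of all genes. IFI27 had a log2 fold change of 2.26 (SE 0.31, edgeR adjusted p 0.0144), and among the fits with 1 library left out, that lacking siNC replicate 2 ended its call (edgeR adjusted p 0.0600). BST2 had 1.57 (SE 0.23, edgeR adjusted p 0.0219), and its call held with 1 library left out only where that library was siNC replicate 4 (edgeR adjusted p 0.0533 to 0.106 in the other 7 fits). IFI6 had 1.03 (SE 0.18, edgeR adjusted p 0.0472), and its call held only without siNC replicate 3 or siNC replicate 4 (edgeR adjusted p 0.0799 to 0.191 in the other 6 fits). When siNC replicate 4 was left out, 14 were higher and 0 lower, where 12.0% of all genes were higher and 4.88% lower. With the trends removed 5 were higher and 0 lower, where 0.894% and 0.878% of all genes were. IFI27, IFI6, BST2 and CCL5 were higher in every siETV4 library than in any siNC library, siNC replicate 4 included, as DHX58, OAS2, OASL and IRF9 were. The sensors IFIH1, DDX58, TLR3 and EIF2AK2 were not. CHAC1 and TLR6, of the other lists, were also higher without overlap. IRF1, IRF5 and TRIM25, a regulator of RNA sensing, were lower without overlap. Over all genes tested, 2.62% were higher and 3.93% lower without overlap, and the genes named here were singled out after their values were seen.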

How the data were processed

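Total RNA of 8 HaCaT cultures was sequenced. Group and replicate number come from each title. Raw counts by gene symbol and FPKM were both deposited by the authors, in separate tables. Each deposited FPKM equals the count divided by the library total and a gene length, the same length in all libraries for 20584 of 20585 genes (relative tolerance 1e-06). The submitters' processing notes name hg38 and R 3.2.0. Aligner, counter, annotation and strand setting: not given in the sources used here.

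Counts were tested in R 4.3.3 with edgeR 4.0.16 (filterByExpr with a minimum count of 10, TMM factors, quasi-likelihood test, siRNA as the only term). P-values were adjusted by Benjamini-Hochberg over all 13572 genes tested and called under 0.05. Each log2 fold change is siETV4 minus siNC, and its SE was derived from the F statistic of the same fit. Fold changes on FPKM are on the log2(FPKM + pseudocount) scale. CPM use TMM-scaled library sizes. For GC content, a symbol's longest transcript in GENCODE v29 was taken, matched through RefSeq synonyms where needed, and was found with a length for 12751 genes (94%), including all 9. Spline offsets (5 degrees of freedom) removed each library's trend with GC content and length. They also remove any part of the group difference that follows these properties. Alternatives were RLE factors, library size alone, other filters, DESeq2 1.42.0, limma-voom and limma-trend on FPKM (limma 3.58.1), a robust fit, a block for the replicate number, each library left out, and other thresholds. The offsets without siNC replicate 4 were added after the data had been seen.

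The 9 genes and all lists were chosen with earlier results of these data known. Named genes are the 9, ETV4, the other RNA sensors and interferon ligands, up to 4 called members of each list by smallest p or its 2 most abundant, and the 2 genes closest to each of the 9. Not all are named in the text, and a few that the rule takes are not reported here. No 2 libraries agreed within sampling noise (lowest chi-square per degree of freedom 8.63 over 28 pairs). The tests were run on simulated counts first.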

Additional observations from a re-analysis of the deposited data

Results flagged for a closer look

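Among the named genes, 66 groups of 4 libraries were examined for a library that stands far from the other 3, and 6 were found, where chance gives about 1 in 20. In siNC replicate 4, DHX9 (279 CPM, other siNC libraries 134 to 144), DDX60 (35.2 CPM, others 13.6 to 14.9) and IFIT2 (75.8 CPM, others 34.5 to 38.0) were far above the other siNC libraries, and KRT17 (171 CPM, others 219 to 227) was far below. OAS1 was high in siETV4 replicate 2 (51.9 CPM, others 45.0 to 46.1), and XPO5 was high in siNC replicate 3 (123 CPM, others 112 to 114). None of the 9 genes themselves had such a library.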

How the results depend on the processing

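ETV4 kept its direction and call under all 21 alternatives. The number of the 9 genes called was 1 with offsets for GC content and length, 5 without siNC replicate 4, 2 with the offsets and siNC replicate 4 left out, and 0 under each other alternative. When each library was left out in turn it ranged from 0 to 5. Over all genes the count was 32 and changed to 223 (DESeq2), 226 (offsets), 827 (offsets, siNC replicate 4 left out), 59 (log2 FPKM plus 1 or plus 0.1), 54 (no filter), 9 (adjusted p under 0.01), 60 (adjusted p under 0.10), and 9 to 2327 with 1 library left out. Among 135 listed genes it was 4 and changed to 12 (DESeq2), 13 (offsets), 28 (offsets, siNC replicate 4 left out), 0 (adjusted p under 0.01), and 0 to 43 with 1 library left out. With the replicate block, 4 genes were called in all, 0 of the listed genes and 0 of the 9, and with the block and the offsets 100. The block alone ended the calls of CCL5 and IFI27 (edgeR adjusted p 0.108 each), IFI6 (0.135), BST2 (0.127), KRT15 (0.0683) and KRT17 (0.0562). Added to the offsets, it ended those of DHX58 (0.0997), OASL (0.0585) and IRF5 (0.0823). No pairing of libraries by these numbers is given in the sources used here. The correlations of same-numbered deviations were -0.09, 0.296, -0.138 and -0.187, and differently numbered ones ran from -0.396 to 0.391. Each library's GC trend enters these correlations, so they cannot settle whether same-numbered cultures were paired.

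Signs reversed for genes near 0. TICAM1 was 0.11 under each of the 3 fits with offsets, 0.01 with library size alone and on log2 FPKM, and 0.04 without siNC replicate 1, in a range of -0.11 to 0.04 with 1 library left out. IRF3 was 0.10 with the offsets, with or without the block, and 0.12 with the offsets and siNC replicate 4 left out. It was 0.02 with library size alone and on log2 FPKM, 0.0040 without siNC replicate 3, and 0.03 without siNC replicate 2 or without siETV4 replicate 4, in a range of -0.11 to 0.03. IRF7 was 0.06 with the offsets, with or without the block, 0.04 with the offsets and siNC replicate 4 left out, and 0.03 without siNC replicate 1, in a range of -0.23 to 0.03. EIF2AK2 was -0.02 with the offsets and siNC replicate 4 left out. OAS3 was 0.01 with the offsets, with or without the block. ATF4 was 0.09 with the offsets, 0.10 with the offsets and the block, 0.04 with the offsets and siNC replicate 4 left out, and 0.0028 without siNC replicate 2, in a range of -0.13 to 0.0028. The cause of these changes was not tested. Named genes other than ETV4 gave 582 of 672 values with the same direction and call. The lowest count of any of the 9 genes in a library was 260 (DHX58, siNC replicate 2), and every test rests on 4 libraries a group, or 3 and 4 with 1 left out.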
